A study of Mus musculus with 6 samples.

Results

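The 10 genes described here encode the TGF-beta ligand Tgfb1, the receptor subunits Tgfbr1 and Tgfbr2, the signal-carrying SMADs Smad2, Smad3 and Smad4, and the feedback inhibitors Smad7, Ski, Skil and Pmepa1. They were matched by gene symbol to 10 of the 56691 genes in the deposited table, and all 10 passed the filter on low counts that left 12467 genes for testing. The genes were chosen by name as parts of 1 pathway after the differences and calls between the gels in these same libraries were known. Their differences between gels are therefore given as a description, with no p-value.

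The libraries came from a mouse macrophage line, which the labels write as RAW246.7 and give as wild type (WT). All cells had been pretreated with LPS, a component of bacterial outer membranes, and were then kept on a hydrogel for 24 h. Cells on MSA-DA hydrogels gave 3 libraries and cells on MSA-ZW hydrogels gave 3 libraries. The series title presents the gels as macroporous, with different capacities for protein absorption and with fibrin networks formed by them, and asks how these affect macrophages. The labels name no dose or time for the LPS, no separate cultures behind the replicates, and no added TGF-beta. P-values below therefore measure the spread between these libraries, which may be technical. A single cell line on 2 gels is the whole model, and only RNA was measured: secreted TGF-beta, protein and SMAD phosphorylation were not analysed here.

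TGF-beta is secreted in a latent form and signals once it is released. It binds the type II receptor, which phosphorylates the type I receptor, and that kinase phosphorylates SMAD2 and SMAD3. These enter the nucleus with SMAD4 and change transcription, including that of genes whose products dampen the pathway. In macrophages TGF-beta is best known for restraining inflammatory activation.

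Count totals were 14374912 to 18346615 on MSA-DA and 16347934 to 18193026 on MSA-ZW. All 10 macrophage markers examined had counts. Their summed level was 4875 to 4945 CPM (counts scaled to a common library size after TMM normalization) on MSA-DA and 5560 to 5631 CPM on MSA-ZW, with Csf1r, Lyz2, Spi1 and Cd14 called lower and Itgam called higher. Summed fibroblast markers stood at 0.0547 to 0.489 CPM on MSA-DA and at 0.242 to 0.494 CPM on MSA-ZW, with Dcn and Thy1 at 0. T cell, B cell and epithelial lists each summed to at most 0.306 CPM in any library, with Cd3d, Cd3g, Cd8a, Epcam, Cdh1 and Krt18 at 0, and endothelial markers summed to 0.952 to 1.31 CPM on MSA-DA and to 0.713 to 2.18 CPM on MSA-ZW. Mitochondrial genes made up 3.10% to 3.12% of counts on MSA-DA and 2.73% to 2.78% on MSA-ZW. The 18S-like locus Rn18s-rs5 made up 0.132% to 0.141% on MSA-DA and 0.238% to 0.449% on MSA-ZW. The part of these shifts in the results below was not tested. In bulk RNA, fewer cells that express a gene and less of its RNA per cell cannot be told apart.

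Of the 10 genes, Pmepa1, Skil, Ski and Smad3 were lower on MSA-DA and were among the genes called by edgeR at an adjusted p below 0.05. edgeR called 0 of the 10 higher, also without adjustment for multiple tests, and DESeq2 called 0 higher. Among all tested genes 13.4% were called, 6.50% lower and 6.92% higher. The MSA-DA and MSA-ZW libraries did not overlap in 5 of the 10 genes, the 4 called ones and Tgfbr1, each with MSA-DA below MSA-ZW, where 28.4% of all tested genes had groups that did not overlap. The median log2 difference (MSA-DA minus MSA-ZW) was -0.18 over the 10 genes and 0.00 over all tested genes. Because the genes were chosen with this contrast known, nothing is read from these shares. By role, 3 of 4 feedback inhibitors, 1 of 3 SMADs, 0 of 2 receptor subunits and 0 of 1 ligand were called.

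**Figure D1:**
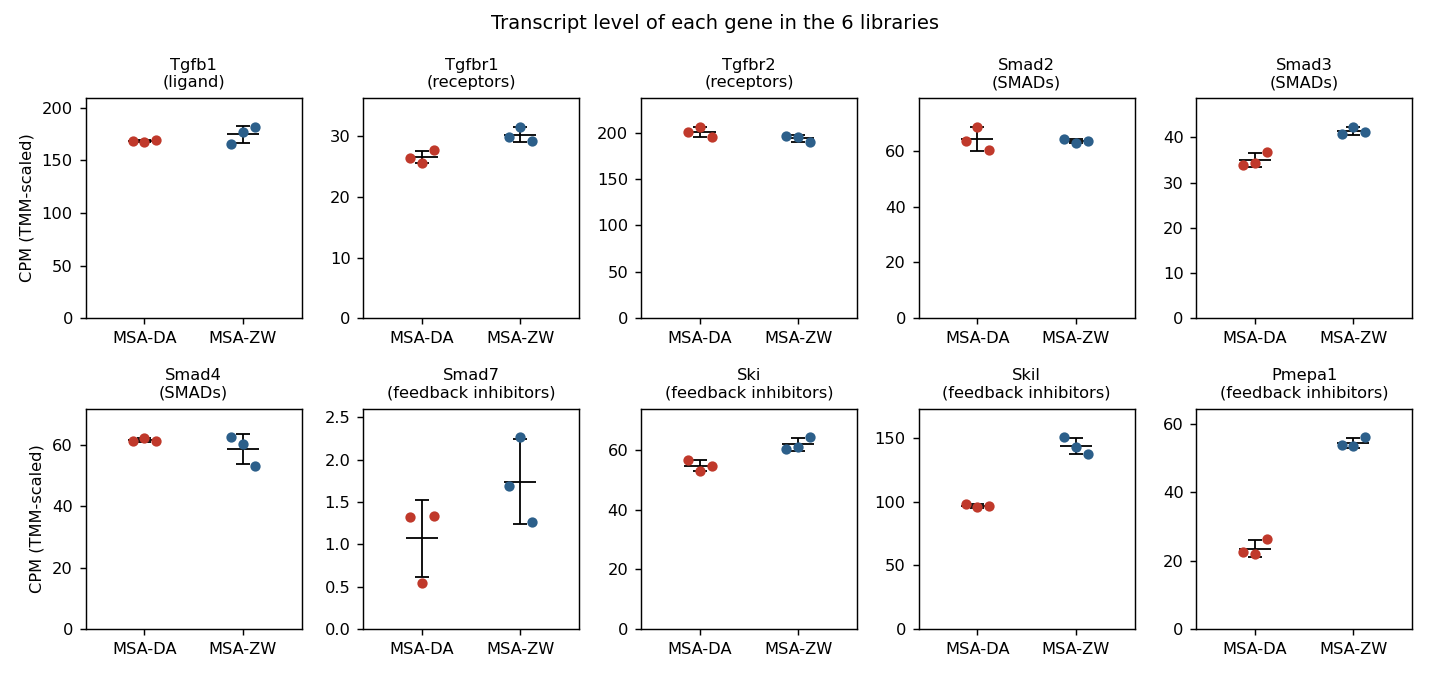
CPM of each gene (vertical axes start at 0 and differ between panels) in the 3 MSA-DA libraries (red, left) and the 3 MSA-ZW libraries (blue, right), with the mean and SD in black. Pmepa1 and Skil show separated groups, at means of 23.5 and 96.9 CPM on MSA-DA and at 54.5 and 144 CPM on MSA-ZW, while Tgfb1, Tgfbr2, Smad2, Smad4 and Smad7 overlap.

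Tgfb1 encodes the TGF-beta1 ligand (ENSMUSG00000002603, chromosome 7, 25386427 to 25404502, plus strand, GRCm39). It stood at 169, 167 and 169 CPM in the MSA-DA libraries and at 166, 177 and 182 CPM in the MSA-ZW libraries. The groups overlapped, since MSA-ZW replicate 1 lay below all MSA-DA libraries. The log2 difference was -0.05 with a 95% interval of -0.12 to 0.02. It was -0.02 without MSA-ZW replicate 3, -0.09 without MSA-ZW replicate 1 and -0.01 with GC content and gene length fitted out, and was called in none of these. The MSA-DA libraries agreed more closely than counting error alone would give, with a coefficient of variation (CV) of 0.612% against 1.92% from counting, whereas the MSA-ZW libraries had a CV of 4.74% against 1.83%.

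Neither receptor subunit was called by edgeR with all libraries and no correction for GC content or gene length. Tgfbr2, the type II receptor that binds the ligand (ENSMUSG00000032440, chromosome 9, 115913361 to 116004428, minus strand), stood at 200, 207 and 196 CPM on MSA-DA and at 196, 195 and 190 CPM on MSA-ZW. These groups overlapped narrowly, and the log2 difference was 0.05 (95% interval -0.01 to 0.12), or 0.03 without MSA-DA replicate 2. Tgfbr1, the type I receptor kinase (ENSMUSG00000007613, chromosome 4, 47353222 to 47414931, plus strand), stood at 26.3, 25.7 and 27.7 CPM on MSA-DA and at 29.9, 31.6 and 29.2 CPM on MSA-ZW. Every MSA-DA library lay below every MSA-ZW library, and the log2 difference was -0.19 (SE 0.07, 95% interval -0.33 to -0.05). Tgfbr1 was called without MSA-ZW replicate 3, at a log2 difference of -0.21, and with GC content and gene length fitted out, also at -0.21. Per unit of exonic length, Tgfbr2 exceeded Tgfbr1 6.07, 6.42 and 5.64 times in the MSA-DA libraries and 5.24, 4.94 and 5.17 times in the MSA-ZW libraries. This ratio was thus higher in each MSA-DA library than in any MSA-ZW library.

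Among the SMADs only Smad3 was called. Smad3, which the type I receptor phosphorylates and which binds DNA directly (ENSMUSG00000032402, chromosome 9, 63554049 to 63665276, minus strand), stood at 34.0, 34.4 and 36.8 CPM on MSA-DA and at 40.7, 42.4 and 41.1 CPM on MSA-ZW. The groups did not overlap, and Smad3 was 1.18-fold lower on MSA-DA, with a log2 difference of -0.24 (SE 0.06, 95% interval -0.36 to -0.12). Smad2, the other receptor-activated SMAD of this branch (ENSMUSG00000024563, chromosome 18, 76374651 to 76444034, plus strand), stood at 63.6, 68.7 and 60.3 CPM on MSA-DA and at 64.2, 62.9 and 63.4 CPM on MSA-ZW. All MSA-ZW libraries lay within the range of the MSA-DA libraries, and the log2 difference was 0.02 (95% interval -0.08 to 0.12). It was -0.04 without MSA-DA replicate 2, the highest library, 0.06 without MSA-DA replicate 3, and 0.01 without MSA-ZW replicate 2 or with GC content and gene length fitted out.

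Smad4 encodes the partner shared by the receptor-activated SMADs (ENSMUSG00000024515, chromosome 18, 73772080 to 73836851, minus strand). It stood at 61.4, 62.3 and 61.4 CPM on MSA-DA and at 62.6, 60.5 and 53.2 CPM on MSA-ZW. The groups overlapped, MSA-ZW replicate 3 was the low library, and the log2 difference was 0.07 (95% interval -0.03 to 0.18). It was 0.00 without MSA-ZW replicate 3 and 0.12 without MSA-ZW replicate 1. Smad4 was the only gene of the 10 whose span overlaps another gene of the table, the opposite-strand Gm50126, which averaged 0.0218 CPM. Per unit of length the ratio of Smad2 to Smad3 was 1.18, 1.26 and 1.03 in the MSA-DA libraries and 0.994, 0.937 and 0.974 in the MSA-ZW libraries. By this measure Smad2 read higher than Smad3 in each MSA-DA library and lower in each MSA-ZW library. Beside counting error, the ratios of MSA-DA replicate 3 and of every MSA-ZW library were too close to 1 to order the pair. Counting alone gives Smad3 a CV of 4.21% on MSA-DA and of 3.77% on MSA-ZW.

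The largest differences were those of the feedback inhibitors Pmepa1, Smad7, which was not called, and Skil, while Ski differed less than Smad3 and Tgfbr1. Pmepa1 encodes a membrane protein that is induced by TGF-beta and keeps SMAD2 and SMAD3 from the receptor (ENSMUSG00000038400, chromosome 2, 173066251 to 173118326, minus strand). It stood at 22.5, 21.9 and 26.3 CPM on MSA-DA and at 54.0, 53.5 and 56.1 CPM on MSA-ZW. The highest MSA-DA library was below the lowest MSA-ZW library, and the level on MSA-DA was 43.1% of that on MSA-ZW. The log2 difference was -1.21 (SE 0.06, 95% interval -1.34 to -1.08), and it ranged from -1.30 to -1.14 over 12 other settings, with the call kept in each. Of the 12467 tested genes 20 had a lower log2 difference, 19 of them called. MSA-DA replicate 3 stood above the other MSA-DA libraries, giving a CV of 10.1% on MSA-DA, against 5.14% from counting alone, and of 2.56% on MSA-ZW.

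Skil encodes SnoN, a co-repressor that binds SMADs and is degraded and then re-made after TGF-beta exposure (ENSMUSG00000027660, chromosome 3, 31149207 to 31176726, plus strand). It stood at 98.5, 95.7 and 96.6 CPM on MSA-DA and at 151, 143 and 138 CPM on MSA-ZW. The groups lay far apart beside their own spread, and Skil was 1.49-fold lower on MSA-DA (log2 difference -0.57, SE 0.04, 95% interval -0.65 to -0.49). Its log2 difference ranged from -0.62 to -0.54 over the 12 other settings, with the call kept in each.

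Ski, the related co-repressor that binds the same SMADs (ENSMUSG00000029050, chromosome 4, 155238532 to 155307049, minus strand), stood at 56.5, 53.1 and 54.6 CPM on MSA-DA and at 60.3, 61.0 and 64.2 CPM on MSA-ZW. The groups did not overlap, and Ski was 1.13-fold lower on MSA-DA (log2 difference -0.18, SE 0.05, 95% interval -0.28 to -0.08). Ski was not called without MSA-DA replicate 2, at -0.16, or with GC content and gene length fitted out, at -0.14. Per unit of length the ratio of Ski to Skil was 1.001, 0.966 and 0.986 in the MSA-DA libraries and 0.697, 0.743 and 0.812 in the MSA-ZW libraries. Per exonic length, the co-repressor RNAs were thus at nearly equal levels on MSA-DA, while Skil exceeded Ski in each MSA-ZW library. The lengths are given per gene, and the isoforms present were not examined.

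Smad7 encodes the inhibitory SMAD that occupies the type I receptor and recruits ubiquitin ligases to it (ENSMUSG00000025880, chromosome 18, 75500600 to 75529006, plus strand). It had 19, 10 and 21 counts in the MSA-DA libraries and 28, 37 and 23 counts in the MSA-ZW libraries, which is 1.33, 0.547 and 1.33 CPM on MSA-DA and 1.69, 2.26 and 1.26 CPM on MSA-ZW. The groups overlapped in CPM through MSA-ZW replicate 3. The log2 difference was -0.72 with a 95% interval of -1.40 to -0.05, which at this depth spans from a small difference to one larger than that of Pmepa1. Counting alone gives a CV of 24.5% at the mean MSA-DA count and of 18.5% at the mean MSA-ZW count, and the observed CVs were 42.3% and 28.9%. The estimate ranged from -0.94 to -0.38 over the 11 other settings that gave a value, with the smallest difference without MSA-DA replicate 2, and was called in none of them.

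**Figure D2:**
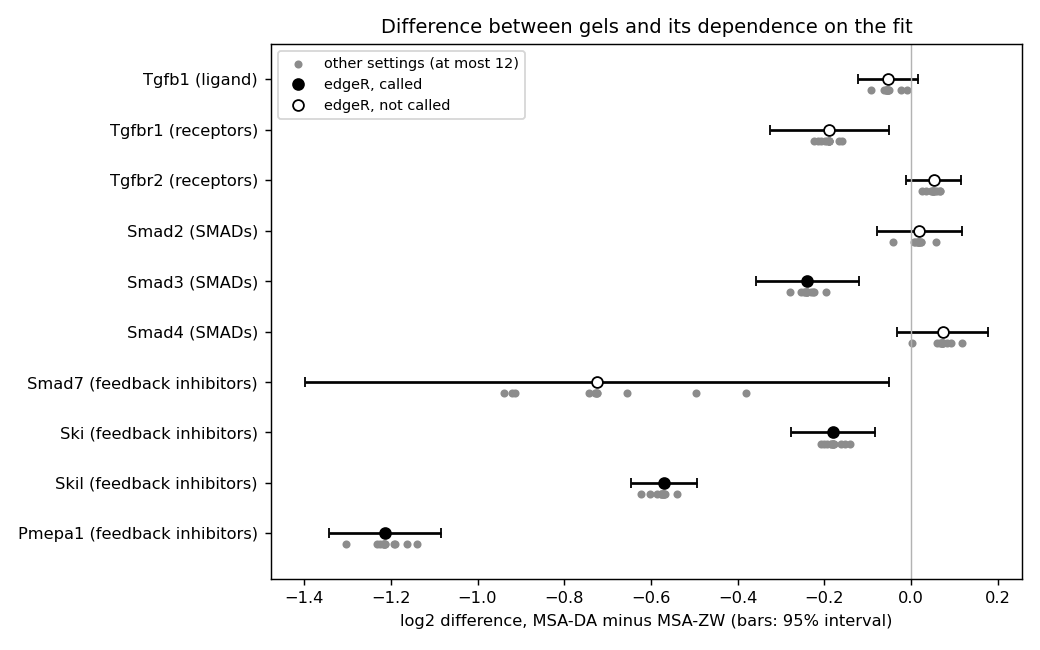
Log2 difference of each gene (MSA-DA minus MSA-ZW, horizontal axis) with its 95% interval, filled where edgeR called it, and in grey below it the estimates under the other settings. Pmepa1 at -1.21, Skil at -0.57, Smad3 at -0.24 and Ski at -0.18 are filled, and Smad7 has the widest interval.

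Levels can be compared between genes only per length, which the FPKM values (counts divided by exonic length and by the library total) that the authors deposited allow. On MSA-DA the order of mean FPKM was Tgfb1 at 33.3, Tgfbr2 at 24.4, Smad4 at 16.5, Skil at 9.96, Ski at 9.81, Smad2 at 7.29, Smad3 at 6.30, Pmepa1 at 4.78, Tgfbr1 at 4.05 and Smad7 at 0.233. The ranges of neighbours overlapped there only for Skil and Ski. On MSA-ZW the order was Tgfb1 at 34.7, Tgfbr2 at 23.7, Smad4 at 15.8, Skil at 14.9, Ski at 11.1, Pmepa1 at 11.1, Smad3 at 7.48, Smad2 at 7.24, Tgfbr1 at 4.63 and Smad7 at 0.387. The ranges of neighbours overlapped there for Smad4 and Skil and for Ski and Pmepa1. Smad3 and Smad2 lay too close there, beside counting error, to be ordered. Pmepa1 was thus eighth on MSA-DA and sixth on MSA-ZW, and ligand, type II receptor and Smad4 led on both gels. Over all 6 libraries Tgfb1 stood at the 87.5th percentile of tested genes by FPKM, Tgfbr1 at the 39.9th and Smad7 at the 4.89th.

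**Figure D3:**
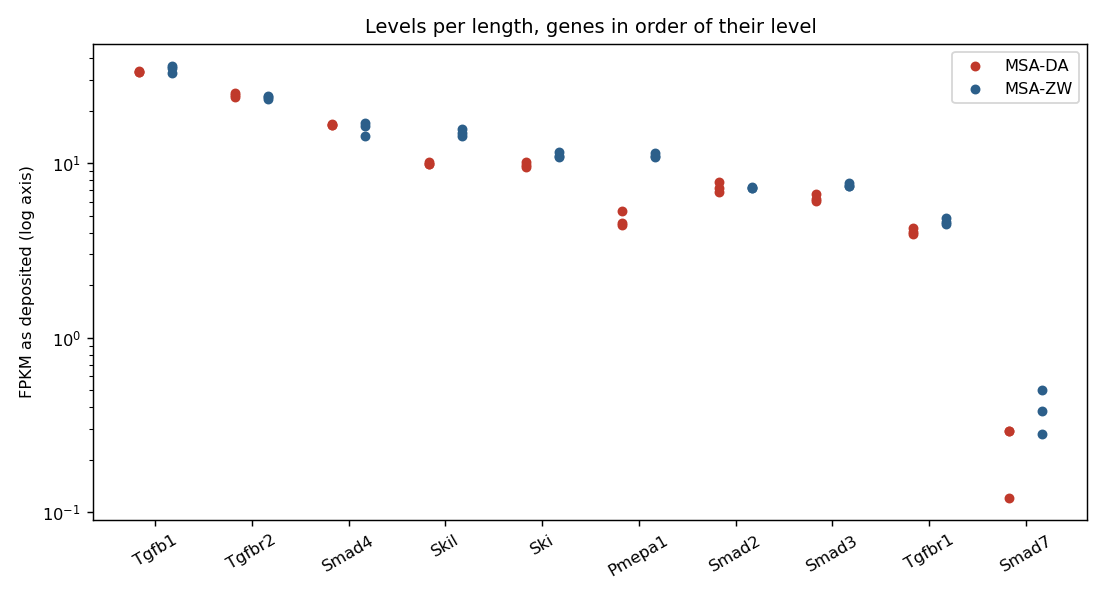
FPKM as deposited (log axis) of each gene in the 3 MSA-DA libraries (red, left) and the 3 MSA-ZW libraries (blue, right), with genes in order of their mean level. Tgfb1 leads at 33.3 on MSA-DA and 34.7 on MSA-ZW, and Smad7 is last at 0.233 and 0.387.

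Promoter windows of 5 of the 10 genes (Tgfb1, Tgfbr1, Tgfbr2, Smad3 and Ski) were searched. They come from a RefSeq table that runs from 250 bases before to 50 after each start site (build GRCm38.p6). Smad2, Smad4, Smad7, Skil and Pmepa1 had no entry. Both strands were searched for the SMAD box CAGAC, its palindrome GTCTAGAC, the GC-rich SMAD motif GGCGC and the AP-1 site TGANTCA, which are found in 49.6%, 0.213%, 36.9% and 7.81% of the 32851 windows searched. The GGCGC motif can match both strands at overlapping bases. Ski and Smad3 are shown because they are the called genes with a window, each as the 250 bases before its start site, 5′ to 3′ on the gene's strand, with GGCGC or its reverse complement in capitals. The Ski stretch is chr4:155222536-155222785 and the Smad3 stretch is chr9:63757995-63758244, both on the minus strand.
Ski: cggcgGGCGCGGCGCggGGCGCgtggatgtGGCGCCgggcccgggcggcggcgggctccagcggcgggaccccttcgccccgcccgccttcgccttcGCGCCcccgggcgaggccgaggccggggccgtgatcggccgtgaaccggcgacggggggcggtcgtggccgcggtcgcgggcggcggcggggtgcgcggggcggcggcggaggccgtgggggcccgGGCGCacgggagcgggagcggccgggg
Smad3: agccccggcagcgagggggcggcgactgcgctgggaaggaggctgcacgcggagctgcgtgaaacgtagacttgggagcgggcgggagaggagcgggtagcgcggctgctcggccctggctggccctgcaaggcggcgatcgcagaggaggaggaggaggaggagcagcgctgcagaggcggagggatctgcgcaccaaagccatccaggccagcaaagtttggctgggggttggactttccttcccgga

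The Ski window held 7 GGCGC matches, a number reached by 1.82% of the windows searched, and had a GC content of 85.3%. The Smad3 window, at 67.7% GC, held none of the 4 motifs. The Tgfb1 window held 2 GGCGC matches. Tgfbr1 had a window with 3 GGCGC matches and another with 1 CAGAC, and the Tgfbr2 window held 1 CAGAC. No window of these genes held the palindrome or the AP-1 site. These are matches of letters only: of the called genes with a window, Ski held matches and Smad3 held none.

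Other genes of the pathway were taken from 4 lists of 78 genes in all, of which 51 had enough reads to be tested and 9 had no count in any library. On MSA-DA 9 fell, 4 rose and 38 were not called, so 25.5% of those tested were called where 13.4% of all tested genes were. Their median log2 difference was -0.02, against 0.00 over all tested genes. The calls of 5 genes, with Furin, Itgav, Dab2 and Junb among them, held in all 12 other settings, and each of the other 8 was lost in at least 1. The count of genes called higher was 0 without MSA-DA replicate 3, 1 without MSA-DA replicate 2, and 2 without MSA-DA replicate 1, MSA-ZW replicate 1 or MSA-ZW replicate 2. The lists were written with earlier results of these data known and are no independent sample of the pathway.

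Ligand supply and activation genes had 6 of 15 members tested, with 2 lower and 0 higher. That is a called share of 33.3%, against 13.4% of all tested genes. With DESeq2 or at an unadjusted edgeR p under 0.05, 0 were higher. Furin, the protease that cleaves the TGF-beta precursor, fell to 36.9 ± 3.11 CPM on MSA-DA, against 47.4 ± 1.55 CPM on MSA-ZW (SD, n = 3 each, edgeR adjusted p = 4.77e-05). Itgav, the alpha v integrin subunit of receptors that free latent TGF-beta, fell to 105 ± 4.03 CPM on MSA-DA, against 125 ± 6.87 CPM on MSA-ZW (edgeR adjusted p = 2.89e-05). In both genes every MSA-DA library lay below every MSA-ZW library. Nrros, which anchors latent TGF-beta on myeloid cells, stood at 75.9 ± 4.82 CPM on MSA-DA, against 76.3 ± 1.69 CPM on MSA-ZW (edgeR adjusted p = 0.921). Itgb6 and Itgb8, integrin partners known for TGF-beta activation in other cells, had no count, and Tgfb2 and Tgfb3 had too few to be tested.

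Co-receptors and receptor regulators had 17 of 20 members tested, with 2 lower and 2 higher. Their called share was 23.5%, against 13.4% of all tested genes. Dab2, an endocytic adaptor that binds the receptors and SMADs, was 1.10-fold lower at 273 ± 11.5 CPM on MSA-DA, against 300.0 ± 6.38 CPM on MSA-ZW (SD, n = 3 each, edgeR adjusted p = 0.00209). Usp4, a deubiquitinase of the type I receptor, was 1.07-fold lower (edgeR adjusted p = 0.0453). Usp15, another deubiquitinase of the pathway, was 1.06-fold higher (edgeR adjusted p = 0.0423), and Map3k7, the kinase TAK1 of the SMAD-independent branch, was 1.08-fold higher (edgeR adjusted p = 0.0270). The calls of Usp4, Usp15 and Map3k7 were lost in 7, 9 and 7 of 12 other settings, including leaving out MSA-DA replicate 2, MSA-DA replicate 3, MSA-ZW replicate 1 or MSA-ZW replicate 2 for all 3 genes. Leaving out MSA-DA replicate 1 also ended those of Usp15 and Map3k7, and leaving out MSA-ZW replicate 3 that of Usp15. With GC content and gene length fitted out neither Usp15 nor Map3k7 was called, at log2 differences of 0.05 and 0.07, against 0.09 and 0.12 without it. The ubiquitin ligases Smurf1 and Smurf2, partners of Smad7, had log2 differences of 0.00 (SE 0.09) and -0.07 (SE 0.06) and were not called. Ppp1r15a, also known as GADD34, which guides a phosphatase to the type I receptor, stood at 19.9 ± 0.630 CPM on MSA-DA, against 16.9 ± 0.820 CPM on MSA-ZW, with no overlap, and was not called (log2 difference 0.23, SE 0.08, edgeR adjusted p = 0.0517). Tgfbr3 had no count.

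SMAD partners and nuclear regulators had 19 of 22 members tested, with 1 lower and 2 higher. This called share of 15.8% was near the 13.4% of all tested genes. Xpo1, the nuclear exporter, and Zeb2, a SMAD-binding repressor, were each 1.08-fold higher (edgeR adjusted p of 0.00141 and 0.00928). Both calls were lost without MSA-DA replicate 3, that of Zeb2 also without MSA-DA replicate 2, and that of Xpo1 with GC and length fitted out, at a log2 difference of 0.04, against 0.12 without it. Smad6, the other inhibitory SMAD, stood at 3.19 ± 0.513 CPM on MSA-DA, against 4.40 ± 0.854 CPM on MSA-ZW, with every MSA-DA library below every MSA-ZW library, and was not called (SD, n = 3 each, log2 difference -0.47, SE 0.19, edgeR adjusted p = 0.0963). Without MSA-ZW replicate 2 its log2 difference was -0.31. Rnf111, the ligase that directs Ski and SnoN to degradation, was not called either, at 55.5 ± 2.25 CPM on MSA-DA, against 56.4 ± 1.95 CPM on MSA-ZW (edgeR adjusted p = 0.857).

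Of 21 genes known to respond to TGF-beta in various cells, 9 were tested, 4 fell and 0 rose. The called share was 44.4%, against 13.4% of all tested genes, in a list written with earlier results of these data known. DESeq2 called 0 higher, and 1 was higher at an unadjusted edgeR p under 0.05. Junb, an AP-1 subunit, stood at 50.2, 49.7 and 50.2 CPM in the MSA-DA libraries and at 68.9, 71.3 and 70.2 CPM in the MSA-ZW libraries. It was 1.40-fold lower, with no overlap of the groups (log2 difference -0.49, SE 0.05, edgeR adjusted p = 1.13e-09). Klf10, a zinc finger factor induced early by TGF-beta, and Vegfa, an angiogenic growth factor, were 1.12-fold and 1.10-fold lower (edgeR adjusted p of 0.0244 and 0.0158). The call of Klf10 was lost with DESeq2 and without MSA-DA replicate 1, MSA-DA replicate 2, MSA-ZW replicate 2 or MSA-ZW replicate 3. The call of Vegfa was lost with DESeq2, without MSA-DA replicate 3 and with GC content and gene length fitted out, at a log2 difference of -0.08, against -0.13 without it. The other 5 tested genes were not called. Cdkn1a and Bhlhe40 had log2 differences of -0.04 (SE 0.03) and -0.07 (SE 0.07), and Ldlrad4 and Olfml3, both at mean levels under 1 CPM, of 0.25 (SE 0.43) and 0.31 (SE 0.39). Tsc22d1, a leucine zipper protein first found as TGF-beta-induced, stood at 11.6 ± 0.579 CPM on MSA-DA, against 10.01 ± 0.771 CPM on MSA-ZW, with every MSA-DA library above every MSA-ZW library (SD, n = 3 each, log2 difference 0.21, SE 0.10, edgeR adjusted p = 0.187). The 12 members that were not tested include Ccn2, Tgfbi and Cdkn2b, which had no count. Most of these genes also respond to other signals.

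**Figure D4:**
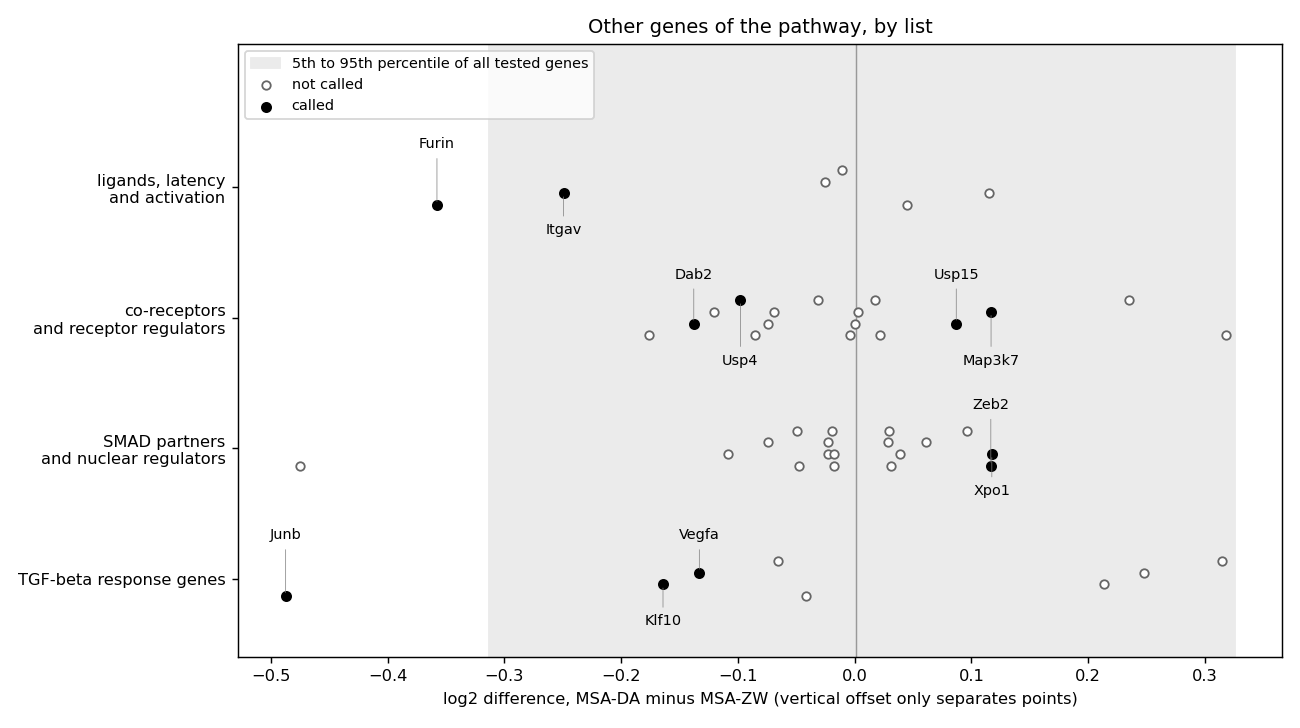
Log2 difference (MSA-DA minus MSA-ZW, horizontal axis) of tested genes of the 4 lists (49 of 51 are drawn), filled and named where called, over a grey band from the 5th to the 95th percentile of all tested genes. Junb at -0.49 and Furin at -0.36 are called and lie below the band, whose lower edge is -0.31.

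Genes with the most similar profiles were found among genes of at least 10 CPM as those with the smallest root mean square distance in centred log2 CPM over the 6 libraries. Since each profile holds the step between the gels, likeness here mostly ranks genes by that step. Nearest to Pmepa1 were Cx3cr1, the fractalkine receptor, at a distance of 0.115, Spata13, an exchange factor for small GTPases, at 0.129, and Cxcl14, a chemokine, at 0.133. Cxcl14 stood at 15.6 ± 0.584 CPM on MSA-DA, against 31.4 ± 1.42 CPM on MSA-ZW, and Spata13 at 12.5 ± 0.866 CPM on MSA-DA, against 24.7 ± 1.198 CPM on MSA-ZW (SD, n = 3 each). Nearest to Skil were Mx1 at 0.0202 and Siglec1 at 0.0212. Siglec1, a sialic acid-binding macrophage receptor, stood at 30.5 ± 0.318 CPM on MSA-DA, against 45.6 ± 1.65 CPM on MSA-ZW. Nearest to Ski were Mcfd2 at 0.0116, Ift172 at 0.0164 and Eif3k at 0.0174. The genes nearest to Smad7, which were Pdlim7, Nfix and Trnau1ap, lay at 0.355 to 0.386.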

How the data were processed

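The submitters' processing notes list HISAT2 (2.2.1), cutadapt (1.9.1) and bcl2fastq (2.20.0.422) and name build GRCm39. The counter, any use of strand and the gene annotation were not given in the sources used here. For each gene and library the authors deposited raw counts and FPKM values, per the file headers. The deposited FPKM values equal count over exonic length and library total, within 0.011 for 100% of genes.

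Counts were fitted with edgeR 4.0.16 in R 4.3.3 (filterByExpr, TMM, quasi-likelihood test, group as the only term), with Benjamini-Hochberg adjustment over 12467 genes. The design left limma on FPKM as the choice if no counts were given; counts were given. SE is the log2 difference over the square root of F. Fits were checked on simulated data for the same genes. No library pair agreed within sampling noise, with a chi-square per degree of freedom of 1.56 or more, so all 6 were used. It was 1.56 to 1.65 between MSA-DA libraries and 2.76 to 4.49 between MSA-ZW libraries, which thus differed more among themselves.

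The 10 genes and the lists were chosen with earlier results of these data known; Tgm2, Cx3cr1, Itgb5 and Itga5 were left off the response list for that reason. Named genes are all 10, up to 6 called genes of each list in each direction with the smallest p, and the 3 nearest profiles of each inhibitor. Uncalled list genes were chosen for naming after their values were seen. GC content came from GENCODE vM21 transcripts (98.9% of tested genes). Across those genes the log2 difference correlated with GC content at a Spearman rho of -0.315, so GC-rich genes tended to be lower on MSA-DA. The source of this trend was not tested. Promoter windows are from RefSeq on GRCm38.p6 and were not placed on GRCm39. Alternatives were RLE size factors, DESeq2 1.42.0, no filter, a replicate block, dropping mitochondrial and ribosomal-RNA-like genes, a GC and length correction, and leaving out each library. A few listed genes and their values are not reported here.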

Additional observations from a re-analysis of the deposited data

How the results depend on the processing

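The lower levels of Smad3, Skil and Pmepa1 on MSA-DA were called in all 12 other settings. Over all genes, edgeR called 1673 of 12467, and 1244 after the GC and length correction. DESeq2 called 949 of the 23573 genes with any count, but gave no adjusted p to some low-count genes, Smad7 among them. On those 23573 genes edgeR without the low-count filter called 1507, so the 2 counts do not cover the same tested genes. With 1 library left out edgeR called between 1001 and 1654, the fewest without MSA-DA replicate 2, then 1065 without MSA-DA replicate 3. Listed pathway genes called higher numbered 4, but 2 with DESeq2, 2 after the GC and length correction and 0 to 4 with 1 library left out. Those called lower numbered 9, 6 with DESeq2 and 7 to 11 with 1 library left out, and the called members numbered 3 to 5, against 4. Smad2 had a log2 difference of 0.02, but of -0.041 without MSA-DA replicate 2 (-0.041 to 0.058 with 1 library left out), and was called in none of these. The replicate block, which uses the numbers of the titles, gave 1594 calls and the same 4 members. Deviations of same-numbered libraries correlated at -0.01 to 0.01 over 8623 genes of at least 10 CPM, so the numbers were not taken to pair the libraries. Depth limits Smad7, whose 10 to 37 counts leave a wide interval.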
